A study of Homo sapiens with 4 samples.

Results

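The CCND1 and FGF locus at 11q13.3 was examined for binding of TEAD4, as all TEAD4 peaks on chromosome 11 whose midpoint lay from 69000000 to 70000000 on hg19. These limits took in 77 of the 51017 peaks of both lists, 51 of 39477 in MKN28 and 26 of 11540 in SNU216. MKN28 and SNU216 are human gastric cancer cell lines, and no treatment or genetic change is named for either. TEAD4 was profiled by chromatin immunoprecipitation and sequencing (ChIP-seq) in 1 library per line, and the authors called peaks against the input DNA of the same line. Without replicates, no difference between the lines can be tested. Peak lists hold no expression, so the labelled cell type could not be checked by markers. Register entries for cell lines describe MKN28 as a derivative of another gastric line, MKN74, which limits it as a separate model.

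CCND1 encodes cyclin D1, which binds the kinases CDK4 and CDK6, promotes phosphorylation of the retinoblastoma protein and so drives cells from G1 into S phase. FGF19, FGF4 and FGF3 encode secreted fibroblast growth factors that act through FGF receptor tyrosine kinases. FGF19 is an intestinal hormone that restrains bile acid synthesis in the liver, while FGF4 and FGF3 act mainly in the embryo. The stretch is amplified as a block in some tumours of several carcinoma types, gastric cancer among them. TEAD4 is a DNA-binding factor of the Hippo pathway that activates transcription with YAP or TAZ, and much of its binding lies in enhancers far from gene starts. In the RefSeq gene order of GRCh38.p14, MYEOV is the nearest protein-coding neighbour on the upstream side of CCND1. On the other side LTO1, FGF19, FGF4, FGF3 and ANO1 follow in this order. CCND1 was the only gene with an hg19 position, at chr11:69455873-69469242. Peaks beyond CCND1 were therefore placed by distance and not assigned to FGF19, FGF4 or FGF3.

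TEAD4 peaks at the locus lay mostly upstream of CCND1 in both lines, in groups separated by long empty stretches, and none lay in the CCND1 body. In MKN28, 35 of the 51 peaks were upstream (68.6%, exact Clopper-Pearson 95% interval 54.1 to 80.9). In SNU216, 20 of the 26 were (76.9%, 56.4 to 91.03). The upstream stretch made up 45.6% of the length, 455.9 of 1000 kb, so both intervals lay above the share of length. The remaining 16 MKN28 and 6 SNU216 peaks lay in the 530.8 kb beyond the gene. MKN28 had 7.68 peaks per 100 kb upstream (exact Poisson 95% interval 5.35 to 10.7) and 3.01 beyond (1.72 to 4.90), a ratio of 2.55. SNU216 had 4.39 per 100 kb upstream (2.68 to 6.78) and 1.13 beyond (0.415 to 2.46), a ratio of 3.88. Neighbouring peaks are not independent, so these counting intervals are too narrow. When peaks whose neighbouring midpoints lay within 12500 bp were counted once, 12 of 19 MKN28 groups (63.2%, 38.4 to 83.7) and 7 of 12 SNU216 groups (58.3%, 27.7 to 84.8) were upstream. Both of these intervals held the share of length, so the excess upstream was not distinguishable once groups were counted in place of single peaks.

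**Figure D1:**
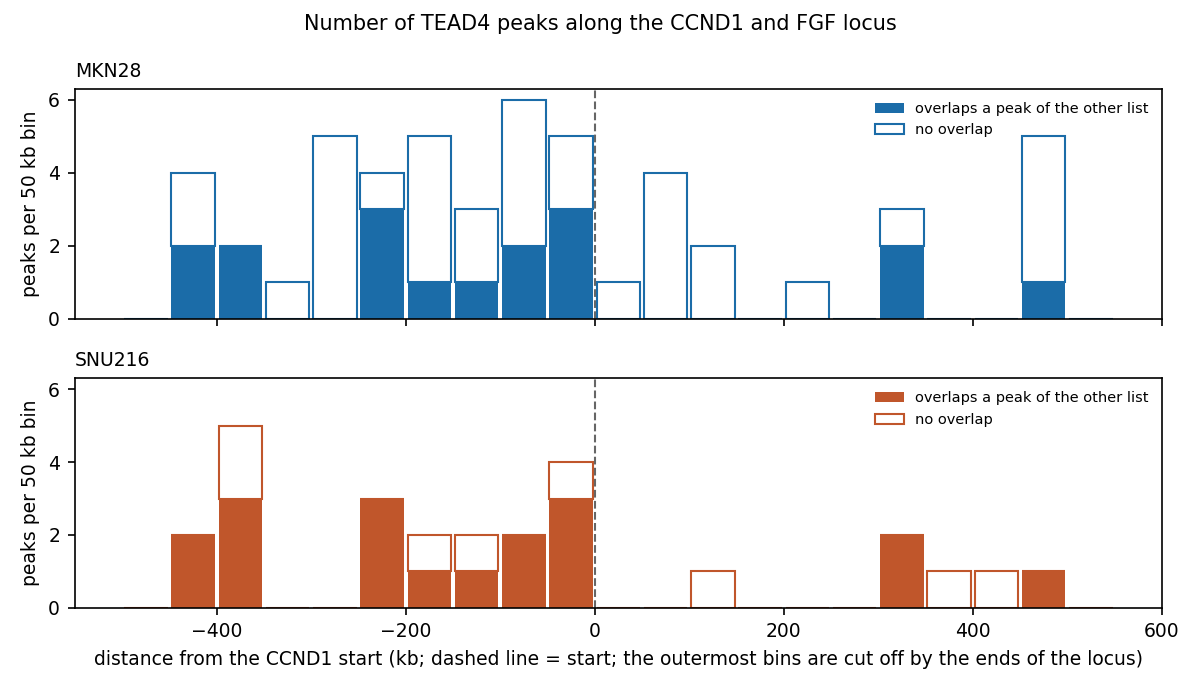
Number of TEAD4 peaks in bins of 50 kb by distance of the midpoint from the CCND1 start, for MKN28 (top) and SNU216 (bottom), with filled bars for peaks that overlap the other list and open bars for the rest. In the bins from 450 kb upstream to the start, 35 MKN28 and 20 SNU216 peaks stand against 16 and 6 beyond it.

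The locus was among the densest stretches of either list. Of 2363 windows of 1 Mb that held an SNU216 peak, 3 held more than 26, and the median window held 4. Exactly 26 were held by 7 windows, the locus among them. Of 2790 such windows in MKN28, 12 held more than 51, 4 held 51 with the locus among them, and the median was 11. The windows on either side were emptier: 68 to 69 Mb held 29 MKN28 and 11 SNU216 peaks, and 70 to 71 Mb held 35 and 7. A window slightly farther off, 65 to 66 Mb, was denser than the locus, at 58 in MKN28 and 27 in SNU216. High density on this part of chromosome 11 was therefore not confined to the locus. The peaks also scored above the middle of their lists. The score is the authors' value per peak, on a scale that the sources used here do not state, and is read here within 1 list. The median score at the locus was 162 in MKN28 (quartiles 77.8 and 499) against 99.8 over the whole list, and 145 in SNU216 (82.6 and 375) against 84.7. Of the 51 MKN28 peaks, 33 scored at least 100 (64.7%, 50.1 to 77.6), beside 49.9% of the whole MKN28 list. In SNU216, 17 of 26 reached it (65.4%, 44.3 to 82.8), beside 42.2% of the whole SNU216 list. The highest-scoring 10% of each list held 14 of the MKN28 and 8 of the SNU216 peaks.

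Closest to CCND1, both lines had a compact group of peaks just upstream of the gene start, and 3 of its peaks were common to them. Of these 3 sites the strongest stood farthest from the gene. In MKN28 it was chr11:69450892-69451776, with a midpoint 4.54 kb before the start and a score of 1578, above 99.4% of the list. In SNU216 it was chr11:69451131-69451767, 4.42 kb before the start, with a score of 975, above 99.2% of the list. The next peak lay 2.74 kb before the start in MKN28, with a score of 637. Its SNU216 partner lay 2.71 kb before the start and scored 185. The third lay 2.05 kb before the start in MKN28 (score 158) and 2.09 kb before it in SNU216 (score 118). Both lists thus gave these 3 sites the same order of score, falling toward the gene, and the paired midpoints differed by 115, 25 and 32.5 bp. The last 2 peaks of the trio were only 29 bp apart in MKN28 and 79 bp apart in SNU216.

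Each line had 1 further peak in this group, and these did not overlap. The MKN28 one was chr11:69448874-69449307, 6.78 kb before the start, with a score of 63.5. The SNU216 one was chr11:69455009-69455449, 0.644 kb before the start, with a score of 58.1, and was the only peak of either list with a midpoint within 1 kb of the CCND1 start. Its near edge was 424 bp from the start. It was weak for its list, above 19.6% of SNU216 peaks. No midpoint and no edge of any peak fell inside the 13.4 kb body. At the mean density of the locus a stretch of that length would hold 0.682 MKN28 and 0.348 SNU216 peaks, so an empty body is not a shortage that these lists could show. Past the gene, MKN28 had a strong peak at chr11:69472550-69473358, 3.71 kb beyond the end of the body, with a score of 676 (above 95.4% of the list). SNU216 had no peak over 129.9 kb, from 0.423 kb before the start to 129.5 kb past it, and MKN28 had 7 there. With the MKN28 list cut into 10 groups by score, 4.46% to 50.2% of the peaks in the groups of these 7 overlapped an SNU216 peak. Over the whole MKN28 list it was 17.1%. Sites without a peak did not pass the authors' threshold, and weaker binding there is not recorded in the lists.

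**Figure D2:**
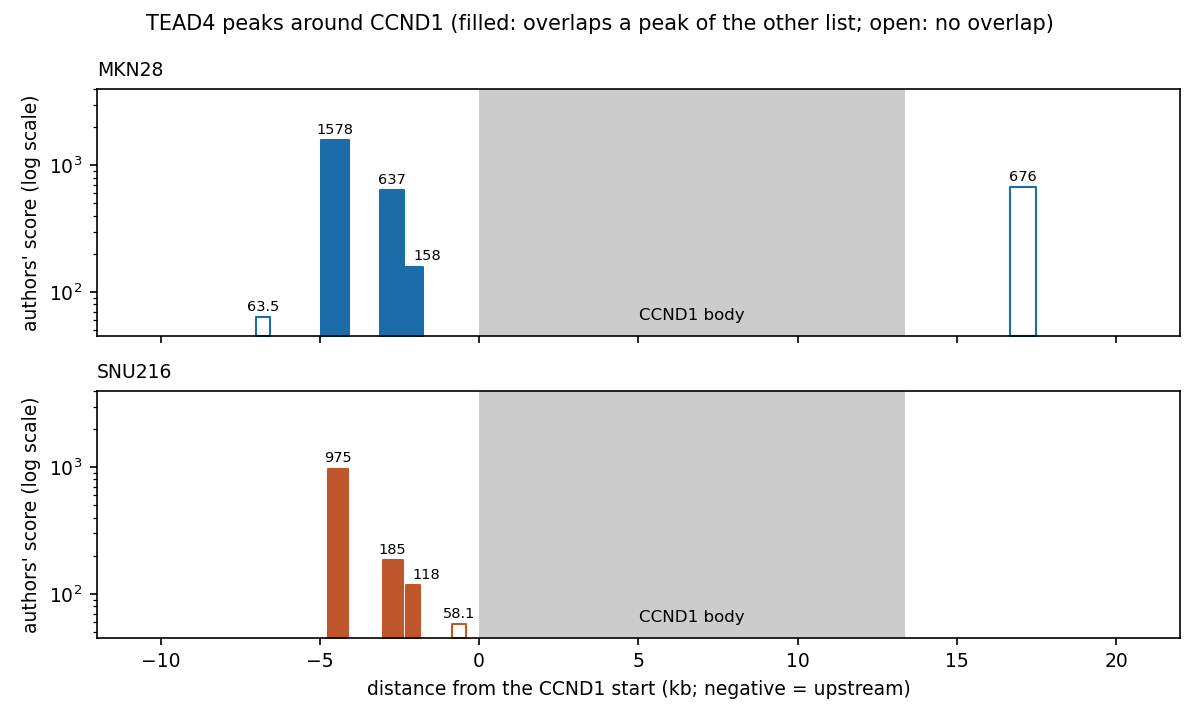
TEAD4 peaks from 12 kb before to 22 kb after the CCND1 start, drawn to scale as blocks whose height is the authors' score (log axis) for MKN28 (top) and SNU216 (bottom); filled blocks overlap the other list, and the gray band is the CCND1 body. The 3 filled blocks of each line stand at matching places and fall in score toward the gene, and the open MKN28 block past the body scored 676.

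The strongest peaks of the locus lay farther upstream, and most were common to both lines. The highest score of the locus in both lists belonged to one site about 220.3 kb before CCND1. It scored 2706 in MKN28 (chr11:69235175-69235896, rank 31 of the list) and 1960 in SNU216 (chr11:69235267-69235774, rank 7 of the list), and the midpoints were 15.0 bp apart. A second strong site followed about 204 kb before the gene. It scored 2229 in MKN28 (chr11:69251510-69252490, rank 67) and 484 in SNU216 (chr11:69251600-69252350, rank 502). These sites belonged to the largest MKN28 group, which held 9 peaks over 30.2 kb with scores from 66.3 to 2706. The SNU216 group at the same place held 4 peaks over 22.7 kb with scores from 82.6 to 1960, and all of them overlapped an MKN28 peak.

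Another strong site stood about 144 kb before CCND1, with a score of 1695 in MKN28 (chr11:69311747-69312603, rank 175) and 745 in SNU216 (chr11:69311958-69312517, rank 192). At the far end of the locus, a site about 404 kb before the gene scored 1953 in MKN28 (chr11:69050967-69052123, rank 112) and 786 in SNU216 (chr11:69051324-69052125, rank 166). Beside it, 1 broad MKN28 peak of 1750 bp (chr11:69064587-69066336, score 652) covered a pair of SNU216 peaks with scores of 545 and 91.5. Its width was 2.33 times the median for MKN28 peaks with similar scores. A smaller site 386.6 kb before the gene scored 343 in SNU216, above 91.7% of that list, and 240 in MKN28, above 79.6%. Of the 8 highest-scoring peaks of the locus, 6 in MKN28 and 7 in SNU216 were thus upstream of CCND1.

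**Figure D3:**
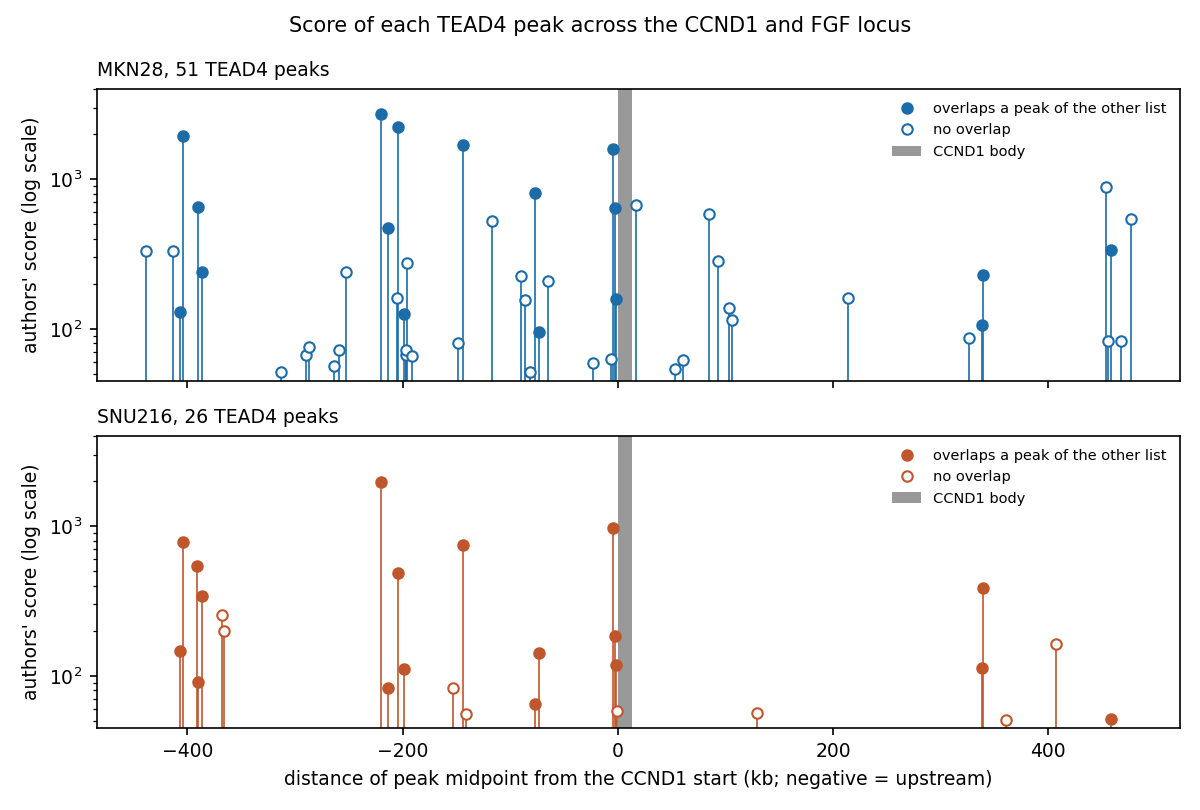
The authors' score (log axis) of each TEAD4 peak by distance of its midpoint from the CCND1 start, for MKN28 (top, 51 peaks) and SNU216 (bottom, 26 peaks); filled points overlap a peak of the other list and the gray band is the CCND1 body. All 5 MKN28 scores above 1000 are filled and upstream, and the highest point of both lines stands at the same site, 2706 in MKN28 and 1960 in SNU216.

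Upstream peaks were more frequent than peaks beyond the gene, but in MKN28 they were not higher in the middle of their range. The median MKN28 score was 162 upstream and 149.7 beyond, a ratio of 1.08, which turned to 0.984 with the border set 5 kb before the start. The upper end differed more. The 5 MKN28 peaks with a score of at least 1000 were all upstream, and the highest beyond the gene was 890. In SNU216 the medians were 166 upstream and 84.5 beyond, a ratio of 1.96 that rests on 6 peaks beyond the gene. The SNU216 scores upstream ran from 55.8 to 1960 and those beyond from 50.5 to 385, so the ranges overlapped.

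Beyond CCND1, on the side of the FGF genes, the peaks were sparser. There 3 of 16 MKN28 peaks had an SNU216 partner (18.8%, beside 24.4% for MKN28 peaks of like score), and 3 of 6 SNU216 peaks had an MKN28 partner (50%, beside 54.5%), so the overlap on this side was near that of peaks of like score. The highest-scoring MKN28 peak there was chr11:69909257-69910121, 440.4 kb past the end of the gene, with a score of 890. It stood in a group of 5 MKN28 peaks over 23.4 kb, with scores from 82.7 to 890, close to the upper limit of the locus. The only SNU216 peak at that group had a score of 51.8, near the lowest score of its list, and overlapped the MKN28 peak with a score of 337. The next highest in MKN28 were the peak just past the gene (676) and chr11:69540556-69541409, 71.7 kb past the end, with a score of 588. The latter opened a group of 4 MKN28 peaks over 22 kb without an SNU216 peak. In SNU216 the highest-scoring peak beyond the gene was chr11:69795258-69795948, 326.4 kb past the end, with a score of 385. Its MKN28 partner scored 228, and a weaker site beside it was called in both lists as well, with scores of 112 in SNU216 and 106 in MKN28. The second highest in SNU216, chr11:69862960-69863607 (score 164), fell in a stretch of 113.2 kb in which MKN28 had no peak. The longest empty stretch of SNU216 ran over 208.2 kb, from 129.8 to 338.0 kb past the CCND1 start, and held 2 MKN28 peaks.

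The lists overlapped at the locus in 17 MKN28 and 18 SNU216 peaks, where overlap means at least 1 bp in common. For MKN28 this was 33.3% of the 51 peaks (20.8 to 47.9), beside 17.1% of the whole MKN28 list. For SNU216 it was 69.2% of the 26 peaks (48.2 to 85.7), beside 59.3% of the whole SNU216 list. Overlap rises with score in these lists, and the locus scored high. MKN28 peaks of like score, taken from 10 groups of the list by score, overlapped in 24.6%, and SNU216 peaks of like score in 69.0%. Both values lay inside the intervals of the locus, so the overlap was not distinguishable from that of peaks of like score elsewhere. Upstream, 14 of 35 MKN28 peaks (40.0%, 23.9 to 57.9) and 15 of 20 SNU216 peaks (75%, 50.9 to 91.3) overlapped. Beyond the gene the intervals were 4.05 to 45.6 in MKN28 and 11.8 to 88.2 in SNU216. The intervals of the upstream and the other peaks shared values in both lines.

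Among the strong MKN28 peaks, overlap was more frequent upstream than beyond the gene. Of the 10 upstream peaks in the highest-scoring 10% of the MKN28 list, with scores from 472 to 2706, 9 overlapped an SNU216 peak. Of the 4 such peaks beyond the gene, with scores from 545 to 890, 0 did. Over the whole list, 50.2% of the peaks in that class overlapped. The 1 strong upstream peak without a partner was chr11:69338602-69339858, 116.6 kb before CCND1, with a score of 526. All 8 SNU216 peaks of the locus in the highest-scoring 10% of that list overlapped an MKN28 peak, 7 upstream and 1 beyond, beside 91.3% over the whole list. The sides also differed in their range of scores, and overlap rises with score, so the split by side also carries a difference in score. Inside the range of the peaks beyond the gene, 545 to 890, the upstream peaks scored 637, 652 and 809, and each had a partner. The split of strong MKN28 peaks by side was noticed in the data, rests on 14 peaks of 1 library and was not tested.

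Some upstream stretches held peaks of 1 line only. SNU216 had a pair of peaks 367.9 and 366.4 kb before CCND1 (chr11:69087674-69088254 and chr11:69089136-69089713), with scores of 257 and 198. They stood inside a stretch of 73.1 kb without an MKN28 peak, although the MKN28 list is the longer one, and 82.1% of SNU216 peaks of like score had an MKN28 partner. Conversely, SNU216 had no peak over 145.6 kb, from 366.2 to 220.6 kb before the gene, where MKN28 had 6. Those 6 scored from 52.0 to 241, with 5 of them under 100. Of MKN28 peaks of like score only 4.46% to 24.1% had an SNU216 partner, so peaks without a partner are the usual case at these scores.

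At sites called in both lines the positions matched closely, while the rank of a site often differed. The 17 MKN28 and 18 SNU216 peaks formed 18 pairs with a median midpoint distance of 51 bp, beside 55.5 bp over all 6876 pairs of the lists. The MKN28 score was the higher one in 13 of the 18 pairs, with a median ratio of 1.5, beside 1.76 over all pairs. A ratio of scores between lists also carries their unlike depth and inputs, which are unknown. By the share of the own list that scored lower, MKN28 was higher in 10 pairs and SNU216 in 8. Across the 18 pairs the scores had a Spearman correlation of 0.54, beside 0.38 over all pairs, where pairs share their 2 libraries and are not replicates.

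The widest gap within a pair upstream was at the site 76.6 kb before CCND1. It scored 809 in MKN28, above 96.8% of the list, and 64.5 in SNU216, above 30.5%. The neighbouring site 73.1 kb before the gene had the opposite order, with 94.9 in MKN28 (above 47.5%) and 143 in SNU216 (above 71.8%). The stronger of these adjacent sites was therefore a different one in each line. They belonged to an MKN28 group of 6 peaks over 25.7 kb with scores from 51.4 to 809, of which SNU216 had these 2. At the site 213.5 kb before the gene, MKN28 scored 472 and SNU216 82.6. The sites 404.3, 220.3, 143.7 and 4.54 kb before the gene stood above at least 98.3% of the peaks in both lists.

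**Figure D4:**
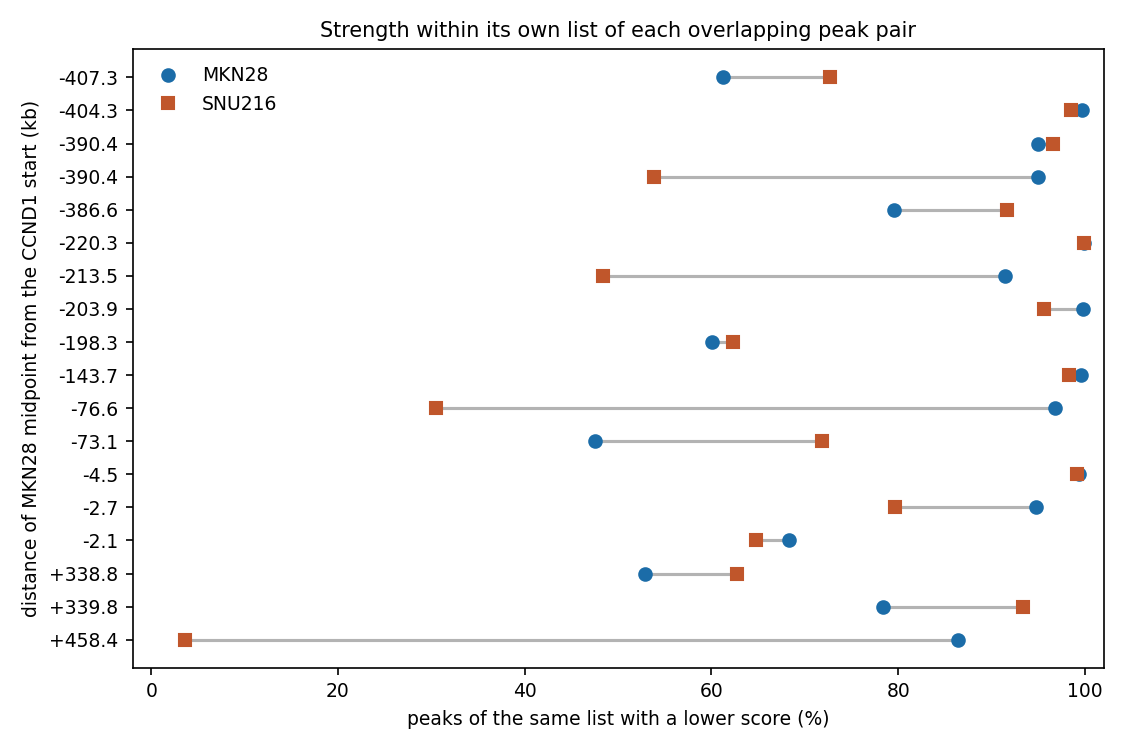
For each of the 18 overlapping pairs, ordered along the locus by distance from the CCND1 start (vertical axis, kb), the percent of peaks of the same list with a lower score (horizontal axis) in MKN28 (circles) and SNU216 (squares). The symbols nearly coincide at the strongest sites, such as the pair 220.3 kb upstream, and lie far apart 76.6 kb upstream (96.8% and 30.5%).

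Peaks of the locus were somewhat wider than others with similar scores. The median width was 661 bp in MKN28 and 589.5 bp in SNU216. Each list was cut by score rank into 50 groups, and the ratio of each width to the median of its group gave a median of 1.08 in MKN28 and 1.19 in SNU216. The neighbouring windows were alike, with 1.10 in both flanking windows in MKN28 and 1.23 (68 to 69 Mb) and 1.11 (70 to 71 Mb) in SNU216. By this measure, 34 of 51 MKN28 and 20 of 26 SNU216 peaks were wider than the median of their group. Over the whole lists these were 19657 of 39477 in MKN28 and 5673 of 11540 in SNU216. Upstream and beyond, the medians were 1.05 and 1.09 in MKN28 and 1.22 and 1.10 in SNU216, so the side with the wider peaks was not the same in both lines.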

How the data were processed

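TEAD4 ChIP-seq and input libraries were made from MKN28 and SNU216, 1 of each per line, and the input libraries were not analysed here on their own. Base calling with CASAVA 1.8, alignment with Bowtie2 2.0.0 and peak calling with MACS on hg19 are listed in the submitters' processing notes. The sources used here give no settings, MACS version or handling of duplicates. Each deposited list holds positions and 1 score per peak from the authors' caller, with no read count, so depth is unknown and no interval for it can be given. Scores rise with depth and were ranked within 1 list.

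Positions were made 1-based. Overlap, width for score, grouping within 12500 bp and distances were computed with scipy 1.17.1, pandas 2.3.3 and numpy 2.4.6 under Python 3.11.15, and the code was tested on simulated data. Intervals cover counting error only. The limits of the locus and the CCND1 position came with the definition of the locus. The members, lists and the rule for named peaks were chosen with earlier results of these data known. That rule took all peaks within 10 kb of the CCND1 body, the 8 highest-scoring of each list and the 3 highest-scoring beyond the gene, and other peaks singled out were chosen after their values were seen. RefSeq (GRCh38.p14) gave gene names and order only, for all 4 genes. No hg19 sequence was used here, so no peak sequence is printed. No test was run, because each line has 1 library.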

Additional observations from a re-analysis of the deposited data

How the results depend on the processing

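With a score of at least 100, 33 MKN28 and 17 SNU216 peaks remained at the locus. With the MKN28 list limited to its 11540 highest-scoring peaks (score 170.9 and above), 24 MKN28 peaks remained, 3 of them within 10 kb of the CCND1 body instead of 5. Of the 24, 50% overlapped an SNU216 peak. Against this shorter MKN28 list, the overlap of the SNU216 peaks of the locus was 50% in place of 69.2%, still inside the interval of 48.2 to 85.7. The overlap over the whole shorter list is not given here, so these shares have no matching background. The lower counts follow by construction, and the reason for the change in overlap was not tested. The ratio of MKN28 median scores upstream to beyond turned from 1.08 to 0.984 with the border 5 kb before the gene start, which moves the 3 nearest MKN28 peaks across it. The number of MKN28 groups, 19 at 12500 bp, was 32 at 5 kb and 11 at 25 kb, by construction. In all, 27 values stayed within their interval or 1.5 times, the SNU216 overlap of 50% among them. The share upstream ran from 62.7% to 70.8% in MKN28 and from 58.3% to 82.4% in SNU216, but the intervals for groups counted once (38.4 to 83.7 and 27.7 to 84.8) reached below the 45.6% of length. Counting groups of peaks once, and the counts near CCND1 under other settings, were added after seeing the data. No replicate could be left out. No paired analysis was possible because there is 1 library per line and no replicate number in the labels. Sites called in 1 list can reflect depth, which is unknown.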

Other observations

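Within the largest MKN28 group, 3 peaks stood almost end to end about 196 kb before CCND1 (chr11:69258745-69259066, chr11:69259124-69259552 and chr11:69259586-69259855), 57 and 33 bp apart. Their scores were 66.8, 72.5 and 274.5, and SNU216 had no peak there. The last was 270 bp wide, 0.415 times the median of MKN28 peaks of like score, and only 23 of the 39477 MKN28 peaks were narrower by this measure. Runs of 3 peaks with gaps of at most 100 bp occurred 11 times in the whole MKN28 list and 2 times in that of SNU216. The shape of the signal between these intervals was not analysed here.

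The limits of the locus lie in empty stretches. The nearest SNU216 peak below the lower limit, 100.7 kb outside it, was strong, with a score of 1128, while the nearest MKN28 peak there, 94.2 kb outside, scored 80.0. Past the upper limit the nearest MKN28 peak, 51.4 kb outside, scored 668 and the nearest SNU216 peak, 80.1 kb outside, scored 62.6. The first and last peaks inside scored 331 and 545 in MKN28 and 147 and 51.8 in SNU216.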
